A study of Mus musculus with 10 samples.

Results

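Expression of 10 chemokine genes, known as attractants of neutrophils, monocytes and other leukocytes, was followed in beta cells sorted from mouse pancreatic islets. They were listed by name (Cxcl1, Cxcl2, Cxcl5, Cxcl12, Cxcl16, Cx3cl1, Ccl2, Ccl7, Ccl20 and Ccl28), and each was found as 1 Ensembl identifier among the 56748 identifiers of the count tables. The first group came from islets of NOD males, 6 to 8 weeks old, that were cultured for 48 hours with 50 ng/ml of lipopolysaccharide (LPS; 5 libraries, numbered 6 to 10). The controls came from untreated islets of males of the same strain and age (5 libraries, numbered 1 to 5). NOD mice are prone to spontaneous autoimmune diabetes, and LPS, from the outer membrane of bacteria, is the ligand of Toll-like receptor 4. In both groups beta cells were sorted by flow cytometry from islets that had been dissociated with trypsin. By this description LPS was added to whole islets, so the other cells of the islet were exposed together with the beta cells. The libraries are called independent samples, but the animals behind each are not named, so that p-values measure the spread between libraries.

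Chemokines are small secreted or membrane-anchored proteins that steer leukocytes through G protein-coupled receptors. The CXC ligands CXCL1, CXCL2 and CXCL5 bind CXCR2 and draw neutrophils, CCL2 and CCL7 draw monocytes through CCR2, and CX3CL1 (fractalkine) acts on CX3CR1. CXCL12 and CXCL16, ligands of CXCR4 and CXCR6, are made by many tissues without an inflammatory stimulus, while CCL20 (for CCR6) and CCL28 (for CCR10) are known above all from epithelia.

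Totals assigned to genes ran from 18465188 to 27379892 counts per library. The sort was checked against defining markers. The summed level of 8 beta cell genes ran from 101620 to 133722 CPM (counts scaled to the normalised library size) in LPS and from 117739 to 136536 CPM in untreated libraries, most of it insulin transcripts. Of these 8, the zinc transporter gene Slc30a8 (347 ± 17.9 CPM in LPS and 523 ± 24.6 CPM in untreated libraries; SD, n = 5 each; log2 fold change -0.59, edgeR adjusted p = 7.37e-05) and Ucn3 (277 ± 34.0 and 431 ± 43.6 CPM in LPS and untreated libraries; -0.64, adjusted p = 0.00143) fell without overlap. The other 6 were not called. The pancreatic polypeptide gene Ppy fell too (-0.99, adjusted p = 0.0473), with overlapping groups. The part of these shifts in the chemokine values was not tested. The alpha cell gene Gcg (6558 ± 1834 CPM in LPS and 8931 ± 3393 CPM in untreated libraries; SD, n = 5 each) and the delta cell gene Sst (6637 ± 1572 and 7068 ± 825 CPM in LPS and untreated libraries) were also present, so the libraries held RNA of other islet cells. The macrophage marker Adgre1 had 0 counts in LPS and 1 in untreated libraries. The leukocyte marker Ptprc and the neutrophil markers Csf3r, Cxcr2, Retnlg and Mmp8 had 0 counts in all 10 libraries. Other genes of the leukocyte lists were present. In LPS and untreated libraries, Cd68 averaged 26.8 and 16.8 CPM and C1qa 14.7 and 18.7 CPM. The lymphocyte marker Cd79a had 219 and 324 counts, and the neutrophil marker S100a9 had 72 and 3.

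Of the 10 genes, Cxcl1, Ccl2 and Ccl28 rose in the LPS libraries and none fell. The call rested on edgeR's quasi-likelihood test and a threshold of 0.05 on p after Benjamini-Hochberg adjustment over 15942 genes. By that rule 3.77% of all genes tested were called, 2.84% as higher and 0.928% as lower. Cxcl2, Cxcl12, Cxcl16 and Cx3cl1 were tested and not called. Cxcl5, Ccl7 and Ccl20 did not pass the filter on low counts and are given by their raw counts. In the 3 genes that rose, every LPS library lay above every untreated library, as was the case for 3.84% of the genes tested, and the groups did not overlap in either direction for 5.71%. The genes were picked with earlier results of these data in view, so these counts describe the list and do not set it apart from other lists.

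**Figure D1:**
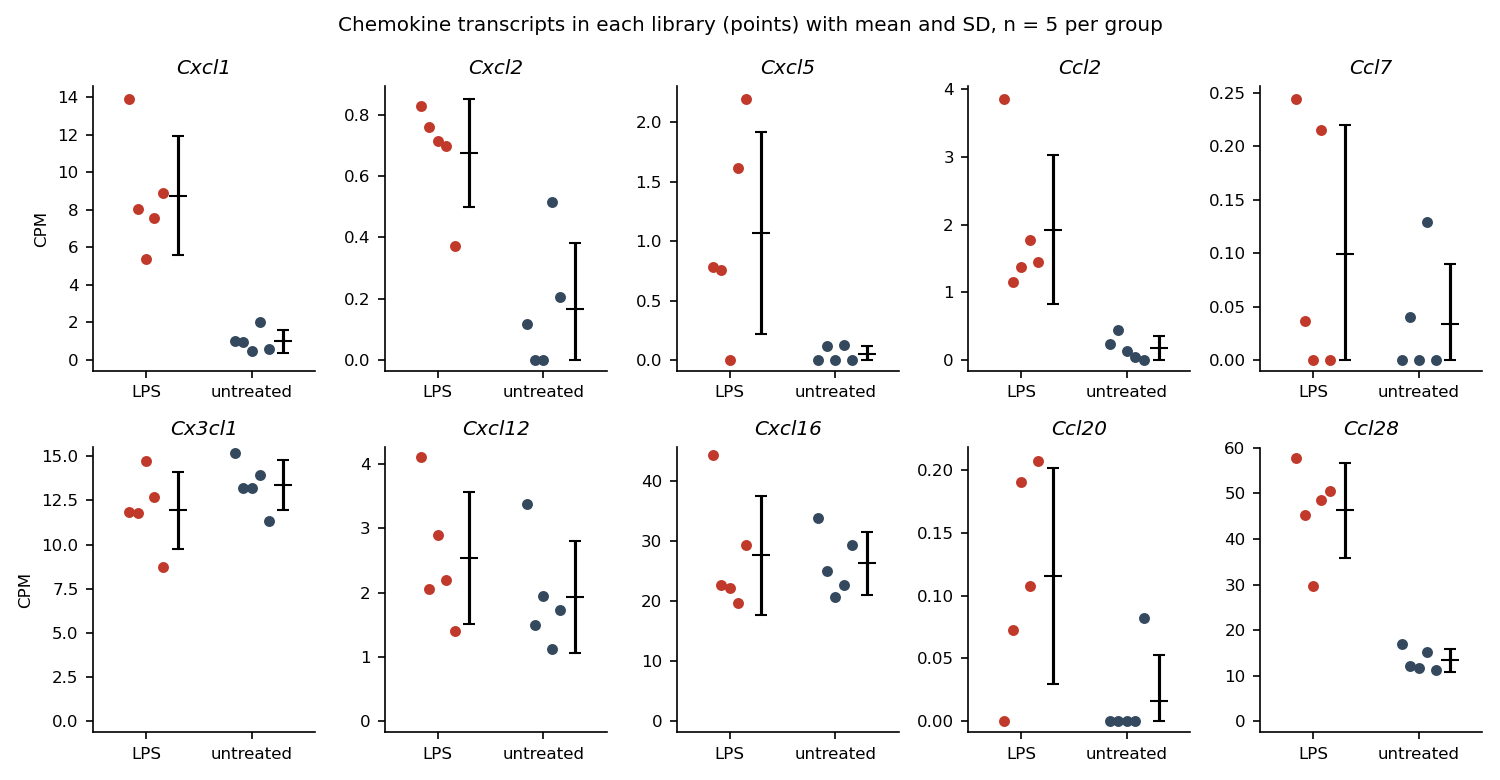
Level in CPM of each of the 10 chemokine genes, with 1 point per library, LPS in red and untreated in blue, in the order of the library numbers. The black marks are the mean and SD (n = 5), with the lower bar ending at 0 where it would pass it, and each panel has its own scale. LPS and untreated points do not overlap for Cxcl1, Ccl2 and Ccl28, while those of Cx3cl1, Cxcl12 and Cxcl16 cover similar ranges.

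Among the neutrophil attractants, Cxcl1 (ENSMUSG00000029380, chromosome 5) carried most of the counts. It had 13.9, 8.03, 5.37, 7.58 and 8.87 CPM in LPS libraries 6 to 10, against 1.01, 0.932, 0.465, 2.02 and 0.575 CPM in untreated libraries 1 to 5. The lowest LPS library, number 8, stood above the highest untreated library, number 4. The raw counts behind these levels were 113 to 285 in LPS and 11 to 47 in untreated libraries. The log2 fold change was 3.13 ± 0.35 (SE; edgeR adjusted p = 1.64e-04), which is 8.72-fold, and it ran from 2.89 without LPS 6 to 3.54 without untreated 4. With the log2 share of counts taken by ENSMUSG00000119584, the most abundant gene without a symbol, as a covariate it was 4.27 (adjusted p = 0.00133).

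Cxcl2, the neighbour of Cxcl1 on chromosome 5, was much lower. It had 17, 21, 15, 13 and 9 counts in LPS libraries 6 to 10, against 3, 0, 0, 12 and 5 counts in untreated libraries 1 to 5. In CPM, 4 of the 5 LPS libraries lay above the highest untreated library, which was again untreated 4, and LPS 10 lay below it. Its log2 fold change, 1.99 ± 0.65 (SE), did not pass (edgeR adjusted p = 0.130). Without untreated 4 it was 2.97 (adjusted p = 0.0275), and limma-voom over all libraries gave 2.84 (adjusted p = 0.0472).

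Cxcl5, the third CXCR2 ligand, varied most of the 3 between LPS libraries. It had 16, 21, 0, 30 and 53 counts in LPS libraries 6 to 10, against 0, 3, 0, 3 and 0 counts in untreated libraries 1 to 5. LPS 8 thus had no count, although its Cxcl1 level was 5.37 CPM, and the other LPS libraries all lay above every untreated library. Summed over libraries, Cxcl5 stood at 1.07 CPM (exact Poisson 95% interval 0.891 to 1.28) in LPS and 0.0491 CPM (0.0180 to 0.107) in untreated libraries. The ratio was 21.9 (exact 95% interval 9.76 to 60.8). These intervals hold only the counting error of pooled counts and leave out the spread between libraries, from 0 to 53 counts in LPS. They are therefore too narrow for a statement about the groups. The reads also carry no known molecule tags. Cxcl5 did not pass the filter on low counts. In an edgeR fit without that filter its log2 fold change was 4.30 (adjusted p = 0.00185), and in DESeq2 4.42 (adjusted p = 0.0447). Of the 8 fits that gave it a value, 5 called it. Apart from the DESeq2 fit and the fit without the filter, these left out 1 library, where the filter asks for fewer libraries. Cxcl5 then passed the filter through its LPS libraries alone, so this tally does not count as support. One such call came without LPS 8, the LPS library with no count (edgeR adjusted p = 0.00221).

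Within a library, Cxcl1 exceeded Cxcl2 per exonic length by 8.31 to 26.2 times in LPS libraries and by 3.09 to 9.56 times in the 3 untreated libraries with Cxcl2 counts. The ranges overlap. Exonic lengths came from GENCODE M21, and 5.84% of the 50-base stretches of Cxcl2 transcripts also occur in Cxcl3, so reads may have been split between these copies. Cxcl3 itself had 5 counts in LPS and 0 in untreated libraries. The other genes of the same cluster were at or near 0: Pf4 had 2 and 0 counts in LPS and untreated libraries, and Ppbp and Cxcl15 had 0 in both. No 50-base stretch of Cxcl1 was shared with another gene.

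Neutrophil markers were set beside these ligands. Their summed level ran from 0.215 to 1.33 CPM in LPS and from 0 to 0.129 CPM in untreated libraries, and none of 7 was tested. S100a9 had 72 counts in LPS and 3 in untreated libraries, S100a8 had 4 and 0, and Ly6g, a defining marker, had 0 and 3. The other 4 were at 0 throughout. Their part in the neutrophil ligand values was not tested.

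The start regions of Cxcl1 and Cxcl2 are printed here because these neighbours differ so much in level. RefSeq (GRCm38.p6, a build other than the GRCm39 named for the counts) gives windows of 300 bases, from 250 before to 50 after the gene start, for 6 of the 10 genes. Capitals mark matches to the NF-kB consensus, searched on both strands, where overlapping matches on the opposite strands are merged. NF-kB is the transcription factor family that Toll-like receptor signalling activates. The last window, that of Ccl28, is shown for comparison with a gene that rose and has no match.
Cxcl1 (chr5:90890995-90891294, + strand): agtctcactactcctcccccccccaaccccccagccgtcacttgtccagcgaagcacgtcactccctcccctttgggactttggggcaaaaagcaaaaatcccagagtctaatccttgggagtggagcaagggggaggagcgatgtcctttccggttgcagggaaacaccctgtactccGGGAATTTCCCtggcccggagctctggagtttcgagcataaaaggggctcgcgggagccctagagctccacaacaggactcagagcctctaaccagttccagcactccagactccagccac
Cxcl2 (chr5:90903649-90903948, + strand): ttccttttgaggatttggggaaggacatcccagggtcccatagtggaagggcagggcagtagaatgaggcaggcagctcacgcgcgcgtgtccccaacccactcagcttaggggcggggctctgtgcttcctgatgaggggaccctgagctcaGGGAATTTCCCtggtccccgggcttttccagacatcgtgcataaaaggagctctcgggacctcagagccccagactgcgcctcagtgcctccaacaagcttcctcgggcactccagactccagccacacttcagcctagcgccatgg
Ccl28 (chr13:119623569-119623868, + strand): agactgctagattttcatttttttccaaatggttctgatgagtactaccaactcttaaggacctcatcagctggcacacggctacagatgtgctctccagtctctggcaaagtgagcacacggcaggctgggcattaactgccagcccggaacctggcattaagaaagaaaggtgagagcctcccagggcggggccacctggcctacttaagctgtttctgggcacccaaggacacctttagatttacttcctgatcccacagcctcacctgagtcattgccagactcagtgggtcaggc

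The same 10 bases, GGGAATTTCC, begin 71 bases before the start of Cxcl1 and 97 bases before that of Cxcl2. This exact run is held by 0.0883% of the 32851 windows in the table, and any match to the NF-kB consensus by 8.46%. The run was chosen because the Cxcl1 and Cxcl2 windows share it, so its share among all windows tests nothing about these genes. Ccl20 was the other gene of the 6 with a match, beginning 80 bases before its start, and Cxcl12, Cx3cl1 and Ccl28 had none. Ccl28 held the AP-1 motif TGANTCA, which reads as such on both strands, 20 bases after its start (7.81% of all windows hold one). The interferon response motif (GAAA, any 2 bases, GAAA) was in none of the 6 windows and in 3.44% of all. The searched letters and windows describe sequence only: a match is not a bound site, and a missing match says nothing about sequence outside these windows.

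Of the monocyte attractants, Ccl2 (ENSMUSG00000035385, chromosome 11) rose. It had 3.86, 1.16, 1.38, 1.77 and 1.45 CPM in LPS libraries 6 to 10, against 0.233, 0.446, 0.127, 0.0430 and 0 CPM in untreated libraries 1 to 5. The counts were low, with 29 to 79 counts in LPS and 0 to 11 counts in untreated libraries. LPS 6 stood apart from the other 4 LPS libraries, and all 5 lay above the highest untreated library, number 2. The log2 fold change was 3.44 ± 0.58 (SE; edgeR adjusted p = 0.00381). It was 3.02 without LPS 6 (adjusted p = 0.00790) and 4.15 without untreated 2. With the same share as a covariate, Ccl2 had a value of 2.96 and was not called (adjusted p = 0.313). That share was 0.227 to 0.427% in LPS and 0.366 to 0.942% in untreated libraries, and its part in the result was not tested further.

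The genes next to Ccl2 on chromosome 11 had few counts. Ccl7, which shares the receptor CCR2, had 5, 1, 0, 4 and 0 counts in LPS libraries 6 to 10, against 0, 1, 0, 3 and 0 counts in untreated libraries 1 to 5. The groups overlap, and the ratio of summed levels, 2.73, had an exact 95% interval of 0.788 to 11.9, so that no difference was detectable at this depth. Ccl11 had 6 counts in LPS and 2 in untreated libraries, Ccl8 had 11 and 1, and Ccl12 and Ccl1 had 0 in both groups. No 50-base stretch of Ccl2 or Ccl7 was shared with another gene.

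Markers of the cell types that could add Ccl2 transcripts were set beside it. Of 9 macrophage markers, 2 were tested and Cd68, a lysosomal protein gene, was called higher (log2 fold change 0.68; adjusted p = 0.0141, overlapping groups). Their summed level ran from 36.4 to 46.7 CPM in LPS and from 29.2 to 42.1 CPM in untreated libraries, almost all of it Cd68 and C1qa. Of the 7 below the filter, Csf1r had the most, with 30 counts in LPS and 48 in untreated libraries, followed by Lyz2 with 4 and 14 and Mrc1 with 7 and 3. Adgre1, Itgam, Cx3cr1 and C1qb had 0, 3, 0 and 1 counts in LPS and 1, 0, 1 and 5 counts in untreated libraries. Summed endothelial markers ran lower in LPS libraries (8.93 to 12.3 CPM) than in most untreated libraries (10.3 to 30.6 CPM), and 1 of their 5 tested genes, Kdr, was called, lower in LPS (-3.12, adjusted p = 0.0473). In bulk RNA, fewer cells of a type and less RNA per cell cannot be told apart. Mesenchymal markers ran from 4.00 to 27.99 CPM in LPS and from 5.87 to 93.0 CPM in untreated libraries, with none of 5 tested called. LPS 6, the library with the most Ccl2, had the least of both the endothelial (8.93 CPM) and the mesenchymal (4.00 CPM) markers. The part of these cell types in the Ccl2 result was not tested.

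Cx3cl1, whose product is tethered to the membrane and shed by the proteases ADAM10 and ADAM17, was well expressed in both groups. It had 11.8, 11.8, 14.7, 12.7 and 8.70 CPM in LPS libraries 6 to 10, against 15.2, 13.2, 13.2, 13.9 and 11.3 CPM in untreated libraries 1 to 5. The groups overlap. The log2 fold change was -0.17 ± 0.13 (SE; edgeR adjusted p = 0.616), and the range of 2 SE around it went from -0.42 to 0.092. Its neighbours Ccl17 and Ccl22 had 2 and 1 counts summed over the LPS libraries and 2 and 0 over the untreated libraries.

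The ligands known for constitutive expression gave no call. Cxcl16, like Cx3cl1 a membrane-anchored chemokine, had 44.2, 22.6, 22.1, 19.7 and 29.3 CPM in LPS libraries 6 to 10, against 33.8, 24.9, 20.7, 22.6 and 29.2 CPM in untreated libraries 1 to 5. LPS 6 was the highest library, and the other 4 LPS libraries lay below the highest untreated library. The log2 fold change was 0.071 ± 0.20 (SE; edgeR adjusted p = 0.924; 2 SE range -0.34 to 0.48), and it was -0.17 without LPS 6. Exons of Cxcl16 overlap those of Zmynd15 on the opposite strand by 552 bases. The use of strand in counting is not given in the sources used here, and Zmynd15, at 499 counts in LPS and 648 in untreated libraries, was not called (-0.25, adjusted p = 0.599).

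Cxcl12, which retains CXCR4-bearing cells in tissues such as bone marrow, had 4.10, 2.06, 2.90, 2.20 and 1.41 CPM in LPS libraries 6 to 10. In untreated libraries 1 to 5 it had 3.38, 1.50007, 1.94, 1.12 and 1.73 CPM. Its groups overlap, and the fit gave 0.38 ± 0.32 on the log2 scale (SE; edgeR adjusted p = 0.657; 2 SE range -0.27 to 1.03). The precision is lower than for Cxcl16 at these 26 to 87 counts per library.

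Of the epithelial chemokines, Ccl28 (ENSMUSG00000074715, chromosome 13), which draws IgA-producing plasma cells to mucosal surfaces, had the most counts of the 3 genes that rose. It had 57.7, 45.2, 29.7, 48.6 and 50.6 CPM in LPS libraries 6 to 10, against 17.0, 12.2, 11.7, 15.1 and 11.3 CPM in untreated libraries 1 to 5. The lowest LPS library, number 8, lay well above the highest untreated library, number 1. The log2 fold change was 1.78 ± 0.17 (SE; edgeR adjusted p = 4.11e-05), 3.44-fold, and stayed between 1.69 and 1.90 with single libraries left out. With 274 to 1249 counts per library, Ccl28 had the smallest standard error of the 3 genes that rose.

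Ccl20, the other epithelial chemokine, was close to the limit of detection. It had 0, 2, 4, 2 and 5 counts in LPS libraries 6 to 10, against 0, 0, 0, 0 and 2 counts in untreated libraries 1 to 5. Counts were thus found in 4 LPS libraries and 1 untreated library. The ratio of summed levels was 7.11 (exact 95% interval 1.61 to 64.9, counting error only), but without a filter the edgeR fit gave a log2 fold change of 2.47 with an adjusted p of 0.422.

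Ductal markers, another epithelial signal in these libraries, were set beside Ccl28. Their summed level ran from 743 to 876 CPM in LPS and from 656 to 773 CPM in untreated libraries. Most of it was Krt7 (473 CPM on average in LPS, 424 CPM in untreated libraries) and Epcam (184 and 168 CPM). Sox9 (1.51 CPM in both groups) and Cftr (0.467 and 0.516 CPM) added little, so the sum says little about them. Of 6 tested, Spp1 was called higher (91.1 ± 21.5 CPM in LPS and 46.4 ± 10.5 CPM in untreated libraries; SD, n = 5; log2 fold change 0.97, adjusted p = 0.00404). The keratin genes Krt19 (0.75, adjusted p = 0.205) and Krt7 (0.16, adjusted p = 0.489) and the duct transcription factor gene Sox9 (0.0080, adjusted p = 0.995) were not called. LPS 8 had the lowest Ccl28 level and the lowest ductal sum among LPS libraries, but the highest values did not coincide. LPS 10 had the highest ductal sum (876 CPM) and LPS 6 the most Ccl28 (57.7 CPM). Untreated 5 had the highest ductal sum of its group (773 CPM) and the least Ccl28 (11.3 CPM). Acinar markers, also epithelial, summed to 127 to 563 CPM in LPS and 218 to 414 CPM in untreated libraries. None of 6 tested was called. The part of the ductal and acinar markers in the Ccl28 result was not tested.

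**Figure D2:**
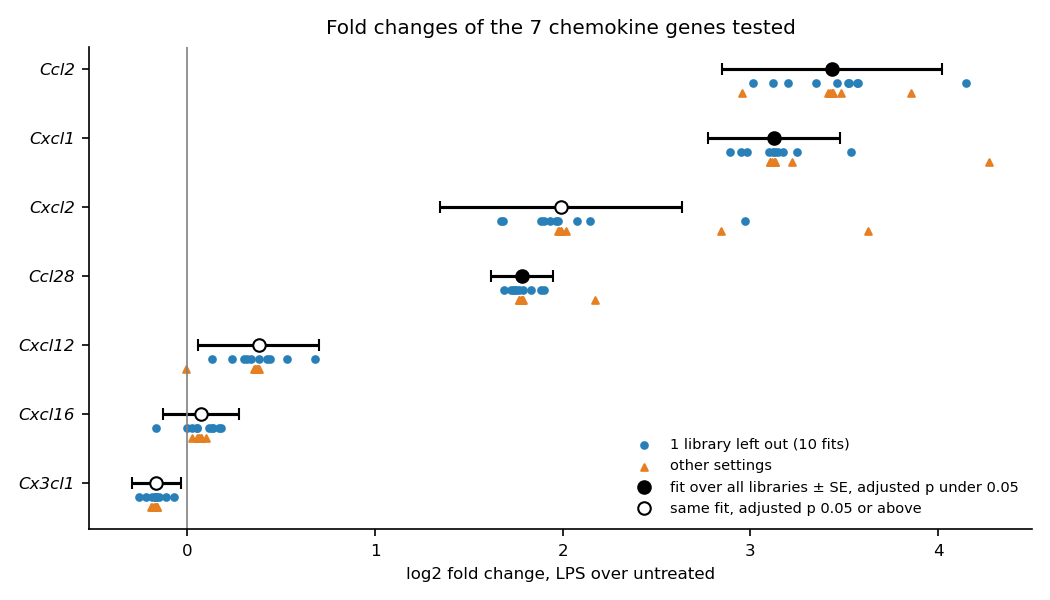
Log2 fold change (LPS over untreated) of the 7 chemokine genes tested, as black circles with SE, filled where the adjusted p was under 0.05. Blue points are the 10 fits with 1 library left out and orange triangles the other settings. Cxcl1, Ccl2 and Ccl28 were at least 1.69 in every fit shown, Cxcl2 moved between 1.67 and 3.63, Cxcl12 between -0.0092 and 0.68, Cxcl16 between -0.17 and 0.18, and Cx3cl1 between -0.26 and -0.070.

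The level of 1 gene relative to another in the same library was also set side by side for the groups. Per exonic length, Cxcl1 was 0.403 to 0.622 times the level of Ccl28 in LPS libraries, against 0.103 to 0.345 times in untreated libraries. These ranges do not overlap. The ratio of Cxcl1 to Ccl2 was 2.19 to 4.21 in LPS and 1.27 to 28.5 in the 4 untreated libraries with Ccl2 counts, and the groups overlap. Ccl28 over Cxcl16, a gene that was not called, was 0.815 to 1.54 in LPS and 0.240 to 0.418 in untreated libraries. No test was run on these ratios. No library was measured before and after LPS, so they compare levels and not increases.

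The order of the 10 transcripts per exonic length differed between the groups. Lengths are those of merged exons (1 block each for Cxcl1 and Cxcl2), and Cxcl16 shares 552 exonic bases with Zmynd15. Ranks between genes are therefore rough. Cxcl16 was the highest per exonic length in all 5 untreated libraries, with 47.1 to 62.2% of the summed level of the 10 genes. In LPS libraries its share was 24.0 to 34.8%, and Ccl28 was highest in 3 and Cxcl16 in 2 of the 5. Ccl28 made up 27.7 to 36.9% in LPS and 14.9 to 19.7% in untreated libraries. Cxcl1 made up 13.0 to 17.7% in LPS and 1.88 to 6.79% in untreated libraries. The order of mean levels in LPS libraries was Ccl28 (9.57 ± 2.15 CPM per kb of exon; SD, n = 5), Cxcl16 (9.13 ± 3.29), Cxcl1 (4.67 ± 1.69), Cx3cl1 (3.04 ± 0.553) and Ccl2 (1.69 ± 0.969), where Ccl28 and Cxcl16, and Cxcl1 and Cx3cl1, differ by less than their spread. In untreated libraries it was Cxcl16 (8.69 ± 1.75 CPM per kb), Cx3cl1 (3.40 ± 0.354), Ccl28 (2.78 ± 0.518) and Cxcl1 (0.534 ± 0.329). The remaining means ran from 0.0812 to 0.574 CPM per kb in LPS libraries, and from 0.0116 to 0.237 CPM per kb in untreated libraries, where Ccl2 (0.149) was among them.

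**Figure D3:**
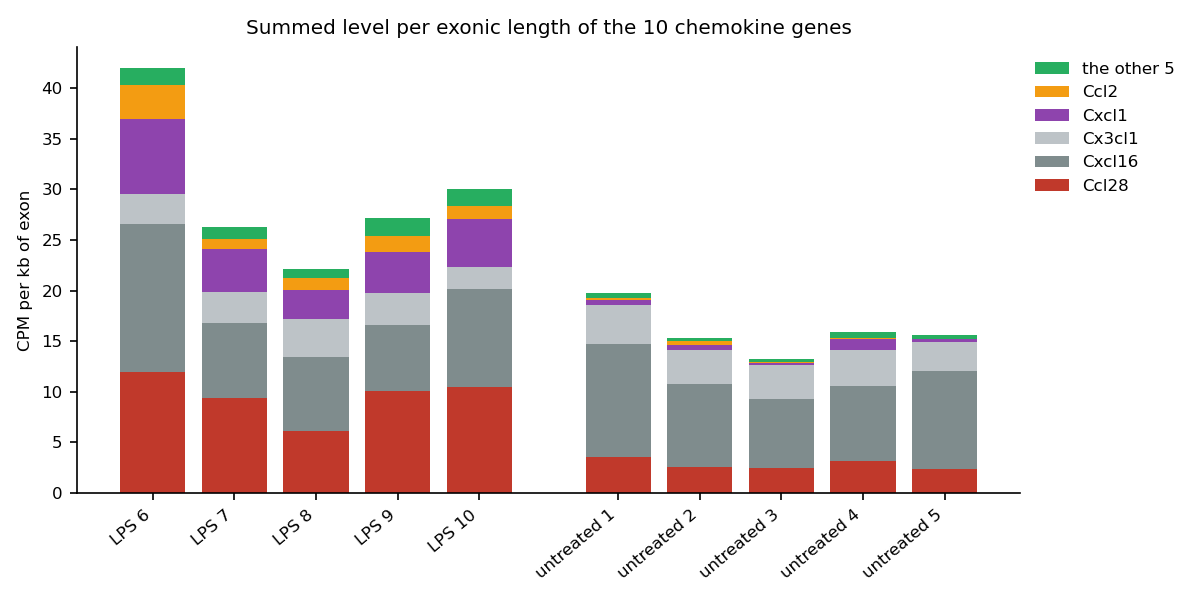
Level per kb of exon of the 10 chemokine genes stacked for each library, LPS on the left and untreated on the right, with the 5 lowest genes pooled as the other 5. The sum was 22.1 to 42.0 CPM per kb in LPS and 13.2 to 19.8 CPM per kb in untreated libraries. The Cxcl16 and Cx3cl1 segments are of similar height in both groups, and the added height in LPS libraries lies mostly in the Ccl28 and Cxcl1 segments.

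Some libraries recurred at the extremes. LPS 6 had the highest level of its group for 7 of the 10 genes (Cxcl1, Cxcl2, Ccl2, Ccl7, Cxcl12, Cxcl16 and Ccl28), and LPS 8 the lowest for Cxcl1, Cxcl5 and Ccl28. LPS 10 was highest for Cxcl5 and Ccl20 but lowest for Cxcl2, Cx3cl1 and Cxcl12. Among untreated libraries, number 4 was highest for Cxcl1, Cxcl2, Cxcl5 and Ccl7. It also had the most of the mesenchymal markers (93.0 CPM), of the endothelial markers (30.6 CPM) and of ENSMUSG00000119584 (0.942% of counts), and the part of these in its values was not tested. Without it Cxcl1, Ccl2 and Ccl28 kept their calls and Cxcl2 was called too. Cxcl5 was also called there, but it had no value in the filtered fit over all libraries. It was called without untreated 2 (edgeR adjusted p = 0.0479) and without LPS 8 (edgeR adjusted p = 0.00221) as well.

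Other chemokine genes and their receptors gave few counts. Of 28 other ligand genes 13 had 0 counts in all libraries and 3 were tested. Cxcl10, a ligand of CXCR3, rose (19.6 ± 6.53 CPM in LPS and 6.36 ± 1.90 CPM in untreated libraries; SD, n = 5; log2 fold change 1.62, edgeR adjusted p = 0.00123), while Ccl25 (0.025, adjusted p = 0.975) and Ccl27a (0.092, adjusted p = 0.890) were not called. Of 23 receptor genes 10 had 0 counts in all libraries, among them Cxcr2 for the neutrophil ligands, Ccr6 for CCL20 and Cxcr6 for CXCL16, and 1 was tested. That one, Ccrl2, encodes a receptor that binds the attractant chemerin without signalling itself. It rose to 25.4 ± 4.24 CPM in LPS libraries, against 12.1 ± 1.48 CPM in untreated libraries (log2 fold change 1.07; adjusted p = 2.10e-04). Summed over LPS and untreated libraries, Ccr2 had 0 and 1 counts, Ccr10 4 and 5, and Cxcr4 8 and 33.

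**Figure D4:**
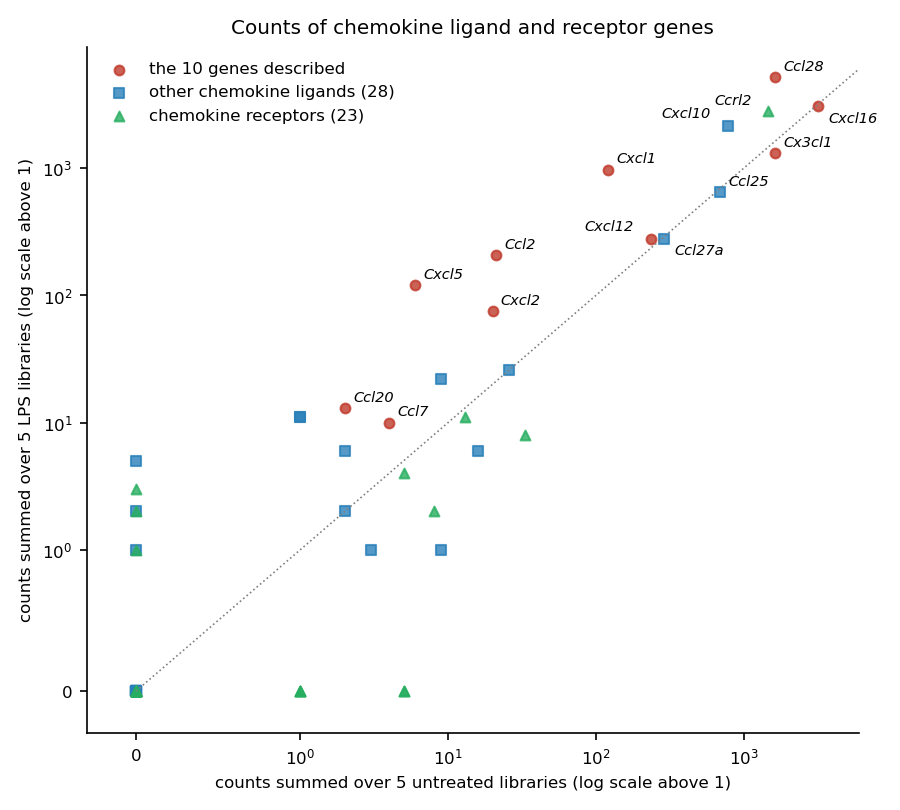
Counts summed over the 5 LPS libraries (vertical) and the 5 untreated libraries (horizontal) for the 10 chemokine genes, 28 other ligands and 23 receptors, on axes that are logarithmic above 1 and not scaled to depth. The dotted line marks equal counts. Cxcl1, Ccl2, Ccl28, Cxcl5 and Cxcl2 lie above it with Cxcl10 and Ccrl2, and most receptors lie at or near 0.

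Factors of chemokine transcription and mRNA decay were all measured. Of 18 listed and tested, 9 rose and none fell, while 2.84% of all genes tested rose. Their median log2 fold change was 0.70, against -0.0091 over all genes. The list was chosen with earlier results of these data known, so these counts do not set it apart from other lists. Nfkbia, the NF-kB inhibitor gene, reached 225 ± 37.2 CPM in LPS libraries, against 62.3 ± 8.84 CPM in untreated libraries (SD, n = 5; log2 fold change 1.85). Zc3h12a, whose RNase product degrades inflammatory transcripts, had a log2 fold change of 2.54, and the NF-kB co-activator gene Bcl3 1.20 (edgeR adjusted p at most 5.41e-06). The AP-1 genes Jun (0.12, adjusted p = 0.591) and Fos (-0.15, adjusted p = 0.541), named after their values were seen, were not called.

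Genes for chemokine shedding, cleavage and surface binding formed another list. Of 13 listed, 11 were tested, 4 rose and 1 fell. Over all genes tested, 2.84% rose and 0.928% fell. This list and the next were also chosen with earlier results known, so their counts are description only. Ext1, an enzyme of the heparan sulfate chains that hold chemokines on cell surfaces, rose (log2 fold change 0.52, adjusted p = 0.00282), as did Rhbdf2 (0.96, adjusted p = 0.00520), a cofactor of ADAM17. Dpp4, a protease that truncates chemokines including CXCL12, fell (-0.31, adjusted p = 0.00404). The other 2 that rose, named after their values were seen, were the sheddase gene Adam10 (0.40, adjusted p = 0.0283) and Hs6st1 (0.28, adjusted p = 0.0235), a heparan sulfate sulfotransferase. Among 14 genes of signals that induce chemokines, 12 were tested and 5 rose: Tnfrsf1a (0.53, adjusted p = 0.00121), Tnf (2.68, adjusted p = 0.00871), Lif (1.75, adjusted p = 0.0148) and, outside the naming rule, Cd14 (0.93, adjusted p = 0.0313) and Myd88 (0.35, adjusted p = 0.0285). The call of Lif was lost without untreated 3 (edgeR adjusted p = 0.0520). With the share of ENSMUSG00000119584 as a covariate, the calls of Cxcl10, Ccrl2, Ext1, Dpp4, Rhbdf2, Tnfrsf1a, Tnf and Lif were lost (edgeR adjusted p from 0.0511 for Ccrl2 to 0.380 for Lif). Each kept its direction there. The log2 fold changes were 1.44 for Cxcl10, 1.01 for Ccrl2, 0.46 for Ext1 and -0.31 for Dpp4. They were 1.00 for Rhbdf2, 0.51 for Tnfrsf1a, 3.52 for Tnf and 1.84 for Lif.

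Genes with the most similar pattern over the 10 libraries were found by the root mean square difference in log2 CPM, each gene centred on its own mean. For Cxcl1 they were the complement gene C3 (0.275), the adhesion molecule gene Icam1 (0.354) and Vnn3 (0.432). C3 stood at 54.8 CPM on average in LPS and 6.85 CPM in untreated libraries, a log2 fold change of 3.00. For Ccl28 they were the kinase gene Lyn (0.154), the MHC class I gene H2-Q7 (0.161), which has near-identical copies so that its reads are uncertain, and Birc3 (0.213), an inhibitor of apoptosis induced by NF-kB. For Ccl2 the nearest were Acpp (0.583), Lgals9 (0.676) and Ifi44 (0.710). Cx3cl1 was nearest to Dact1 (0.0779), Cxcl16 to Dusp5 (0.137) and Cxcl12 to S1pr2 (0.252), none of which was called. A gene with a small change lies near many others by this measure, so distances compare only within 1 gene. The measure also includes the difference between the groups. Similar fold changes of the genes found, or their lack of a call, therefore follow largely from the search.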

How the data were processed

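Counts per Ensembl gene were deposited by the authors as 1 table of raw counts per library, from 5 LPS and 5 untreated libraries grouped by their titles. Build GRCm39, the aligner STAR and the counter HTSeq, with Trimmomatic, FastQC, SAMtools and DESeq2, come from the submitters' processing notes. No source used here gives versions, annotation release, strand use or library kit. Lines that name no gene were left out: reads outside genes made up 8.84 to 12.9%, ambiguous reads 1.40 to 1.61% and reads aligned to several places 4.89 to 6.10% of the reads in each table. Of 56748 identifiers, 52073 matched a symbol.

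In R 4.3.3, genes were kept by edgeR 4.0.16 (filterByExpr, minimum count 10, minimum total 15), scaled with TMM factors and compared with the quasi-likelihood F test without covariates. Benjamini-Hochberg adjustment covered 15942 genes, with calls under 0.05. Standard errors come from the fold change and its F statistic. CPM are TMM-normalised. The fit was tested on simulated data. Groups share no replicate number, so no block was used. For sums of few counts, exact Poisson and binomial 95% intervals were computed with scipy 1.17.1. They treat the libraries of a group as 1 pool and leave out the spread between libraries. Of 0 counts over a group, up to 3 are allowed, or 0.0269 CPM in LPS and 0.0246 CPM in untreated libraries.

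The chemokine genes and lists were chosen with earlier results of these data known. Named were all 10 genes, the 3 called genes with the smallest adjusted p in each other list and the 3 genes most alike in pattern for each chemokine gene averaging 1 CPM or more (predicted genes and pseudogenes left out). In lists with no call, the 2 genes with the highest mean were eligible, and any other gene named was chosen after its values were seen. Alternatives were DESeq2 1.42.0, limma-voom (limma 3.58.1), 1 surrogate variable (sva 3.50.0), other scalings, filters and a covariate, and each library left out in turn. Figures were drawn with matplotlib 3.10.9.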

Additional observations from a re-analysis of the deposited data

Results flagged for a closer look

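In each group of 5 libraries, the gap of the highest or lowest library to its nearest neighbour was compared with the whole range of the group. Of 20 such groups, 3 had a gap above the 95% critical value of 0.71. Chance gives about 1 in 20 for continuous values, a rate that does not hold for groups near 0 counts. Ccl2 in LPS 6 stood at 3.86 CPM, with 79 counts, and the next library at 1.77 CPM. Cxcl2 in LPS 10 stood at 0.373 CPM, with 9 counts, and the next library at 0.698 CPM. Ccl20 in untreated 5 stood at 0.0821 CPM, from 2 counts, and the other 4 untreated libraries at 0, where a single library with counts passes the value by construction.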

How the results depend on the processing

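Cxcl1, Ccl2 and Ccl28 were all called in 18 of the 19 fits, including the 10 with a library left out; the exception is Ccl2 with the share of ENSMUSG00000119584 as a covariate. With that covariate, 157 genes were called in place of 601 and 5 genes of the other chemokine lists in place of 21, and the value of Cxcl12, not called in any fit, was -0.0092. The cause was not tested. That share was 0.227 to 0.427% in LPS and 0.366 to 0.942% in untreated libraries, so it and LPS are partly confounded in that fit. Over all genes, DESeq2 called 938 and 1 surrogate variable 1253. Leaving out single libraries gave 3 to 5 called chemokine genes and moved Cxcl16 between -0.17 and 0.18 and Cxcl12 between 0.13 and 0.68. The 5 came without untreated 4, where Cxcl2 and Cxcl5 were added. Cxcl5 had no value in the filtered fit over all libraries and passed the filter only in some of these fits. Ccl7 and Ccl20, with few counts in every library, are limited by depth. Cxcl5 had more counts, but they ran from 0 in LPS 8 to 53 in LPS 10. No paired analysis was possible because the groups share no replicate number.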
